A study of Mus musculus with 9 samples.

Results

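The genes described are 5 protein lysine methyltransferases of muscle, Mettl21e, Mettl21c, Smyd1, Smyd2 and Smyd3, taken by name from a table of 13179 genes; all 5 were present, and all 5 were among the 13137 genes that passed the filter on low values. They were followed in gastrocnemius of mice without p38α in muscle (genotype p38alphaMCK-KO, here p38α KO, 3 libraries), of mice without p38α and p38γ in muscle (p38alpha/gammaMCK-KO, here p38α/γ KO, 3 libraries) and of control mice (3 libraries). All 9 libraries, the controls included, came from mice fed a high-fat diet for 6 weeks, so no value speaks of mice on another diet, and the labels used here give no age, sex or further allele. MCK names the muscle creatine kinase promoter, which is active in muscle fibres, so other cells of the tissue keep both kinases. Mettl21e was chosen by its values in p38α KO and control muscle, and the other members by their family, with earlier results of these data known. The contrast of p38α KO with control is therefore given as a description of all 5 members: no p-value of a member is given there, and nothing is read from a member being called in it.

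Protein lysine methyltransferases transfer methyl groups from S-adenosylmethionine to lysine side chains. The Mettl21 enzymes have a seven-β-strand fold and act on proteins outside chromatin, chiefly chaperones and translation factors. Mettl21c modifies alanyl-tRNA synthetase and is found mainly in slow fibres of mouse muscle, whereas Mettl21e has been studied in fast fibres of the mouse and is a pseudogene in humans. The SMYD enzymes carry a SET domain split by a zinc-binding MYND domain. Smyd1 is restricted to heart and skeletal muscle and is needed for sarcomere assembly, Smyd2 methylates the chaperone Hsp90 in the cytoplasm and has been tied to titin stability, and Smyd3 methylates histones and the kinase MAP3K2, the last shown in cancer cells.

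In GRCm38 (GENCODE M21 annotation) 4 of the members lie on chromosome 1. Mettl21e (ENSMUSG00000046828) spans 44204070 to 44218961 and Mettl21c (ENSMUSG00000047343) spans 44009408 to 44020034 on chromosome 1, both on the minus strand. Smyd2 (ENSMUSG00000026603) spans 189880492 to 189922363 and Smyd3 (ENSMUSG00000055067) spans 178951960 to 179518041 on chromosome 1, and Smyd1 (ENSMUSG00000055027) spans 71213940 to 71322233 on chromosome 6, all on the minus strand. No stretch of 51 bases, the read length, occurs in the exons of more than 1 member, so no full read can match both Mettl21e and Mettl21c exactly. Placement of reads with mismatches was not tested. For Smyd2, 24.6% of such stretches also belong, on the opposite strand, to the antisense gene Gm37422. The library kit marked strand, but whether strand was used in counting is not given in the sources used here, so Smyd2 values carry that uncertainty.

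Promoter sequence was at hand for 2 of the 5 members, Smyd1 and Smyd2 (RefSeq, GRCm38.p6). Both are shown since no other member had such a sequence at hand. Both genes were lower in p38α/γ KO libraries than in every control, as described further on, without passing the threshold in the fit over 9 libraries. In that comparison groups did not overlap, in either direction, for 55% of all tested genes. The start regions of the pair look unlike each other. Each runs from 250 bases before the annotated start to 50 bases after it, at chr6:71262232-71262531 for Smyd1 and chr1:189922242-189922541 for Smyd2, both on the minus strand, and capitals mark a match to TATAAA; both RefSeq starts lie inside the longer GENCODE spans given above.
Smyd1: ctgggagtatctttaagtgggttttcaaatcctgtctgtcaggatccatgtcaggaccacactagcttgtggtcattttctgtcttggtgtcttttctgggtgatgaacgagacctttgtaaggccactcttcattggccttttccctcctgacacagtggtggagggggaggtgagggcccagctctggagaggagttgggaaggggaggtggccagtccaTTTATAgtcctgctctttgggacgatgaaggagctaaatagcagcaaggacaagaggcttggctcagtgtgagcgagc
Smyd2: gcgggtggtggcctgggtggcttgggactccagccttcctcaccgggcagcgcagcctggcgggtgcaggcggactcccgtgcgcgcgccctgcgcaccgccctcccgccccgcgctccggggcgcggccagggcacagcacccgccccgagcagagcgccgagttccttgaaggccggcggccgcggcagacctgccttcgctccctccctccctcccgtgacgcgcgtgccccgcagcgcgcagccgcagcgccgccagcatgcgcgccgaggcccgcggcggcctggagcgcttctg
The Smyd1 window held 52.0% G and C and 3 CpG dinucleotides, and the Smyd2 window 79.0% G and C and 43 CpG dinucleotides, against medians of 52.7% and 7 over 32851 promoters. The Smyd1 window had 1 TATAAA match, on the strand opposite to the gene, beginning 28 bases before the start, and the Smyd2 window had none; 13.6% of all promoter windows have such a match on either strand. Neither window had a match to CANNTG, the E-box read by myogenic factors, which 72.3% of promoters hold, with both strands searched. A match or its lack says only whether these letters stand in the window.

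The deposited value is a normalised count, and the libraries held 23.8 M to 27.9 M reads as inferred from these values. Mapk14, which encodes p38α, averaged 43.2 ± 2.63 in p38α KO libraries, 44.8 ± 9.03 in p38α/γ KO libraries and 149.6 ± 7.01 in controls (SD, n = 3 each). Mapk12, which encodes p38γ, averaged 101.5 ± 4.46 in p38α KO libraries, 33.2 ± 2.18 in p38α/γ KO libraries and 143.3 ± 7.74 in controls. The deleted genes were thus lower in each knockout, with a remainder in the bulk tissue. Mapk12 was also lower in p38α KO, where the label names p38α alone, by 0.49 on the log2 scale (limma adjusted p = 0.00601, and 0.0655 in the 6 libraries of that comparison with replicate number as a block), with no overlap between the groups. Summed over 10 fibre genes that include Acta1, Ckm and Myh4, the value was 94483 to 128294 in p38α KO libraries, 111724 to 116981 in p38α/γ KO libraries and 145578 to 159985 in controls, so all 9 libraries were muscle. p38α KO library 1 stood somewhat apart from its group, with a correlation of log2 values of 0.960 with library 3 and 0.976 with library 2, while all other pairs within groups lay between 0.987 and 0.993. Results that rest on that library are given with and without it.

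Mettl21e was the member with the widest range. Its normalised counts were 12.4, 24.5 and 45.5 in p38α KO libraries 1, 2 and 3, against 2.09, 2.07 and 2.06 in the 3 controls. Every p38α KO library lay above every control, at 5.96, 11.8 and 22.0 times the control mean, and the 3 knockout values themselves spread widely. The means were 27.5 ± 16.8 in p38α KO muscle and 2.07 ± 0.0135 in control muscle (SD, n = 3 each). On the scale of log2(value + 1), used for all differences here, this was a difference of 3.03 (SE 0.35), which is 8.18-fold on that scale and understates the change of a gene so low in controls: with no pseudocount the log2 difference was 3.53, and with 5 in place of 1 it was 2.06. Without p38α KO library 1 the log2 difference was 3.49, and without library 3 it was 2.59. The values rest on 337 to 1280 reads per p38α KO library and 47 to 52 reads per control library.

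In p38α/γ KO muscle Mettl21e was also above control, but by less. The 3 p38α/γ KO libraries had 7.97, 6.20 and 6.62, against the 2.09, 2.07 and 2.06 of the controls, so the groups did not overlap and the p38α/γ KO values lay close together. The log2 difference was 1.36 (SE 0.35), 2.57-fold on the log2(value + 1) scale, and it passed the threshold of 0.05 (limma, adjusted p = 0.0228); this comparison uses the control libraries with which Mettl21e was picked. The call rested on all 6 libraries: without any 1 of them the adjusted p lay between 0.0561 and 0.0689, at log2 differences of 1.27 to 1.43, and with a pseudocount of 5 the log2 difference was 0.75 (adjusted p = 0.0861). Fitted to the 6 libraries of this comparison alone, without the wide spread of the p38α KO group, the adjusted p was 0.000218. That fit draws on the control spread of Mettl21e, a coefficient of variation of 0.651% at 47 to 52 reads per library. The median over all tested genes in controls was 8.16%. Whether so narrow a spread would recur was not tested, so the smaller p is not read as stronger evidence.

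Between the knockouts, all p38α KO values of Mettl21e (12.4 to 45.5) lay above all p38α/γ KO values (6.20 to 7.97). The log2 difference, p38α KO minus p38α/γ KO, was 1.67 (95% interval 0.89 to 2.45, limma adjusted p = 0.0854) and did not pass the threshold over 13137 genes; it shares the p38α KO libraries by which the gene was picked. Without p38α KO library 1 it was 2.13 (limma adjusted p = 0.00107). Nothing is read from that p, since the refit drops the lowest library of the group by which Mettl21e was picked. With 1 library left out, 23 to 1872 genes were called between the knockouts, against 58 with all libraries. An exact permutation test of 3 against 3 libraries gave p = 0.1 for Mettl21e between the 2 knockouts and between p38α/γ KO and control, two-sided, which is the smallest that this design allows.

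**Figure D1:**
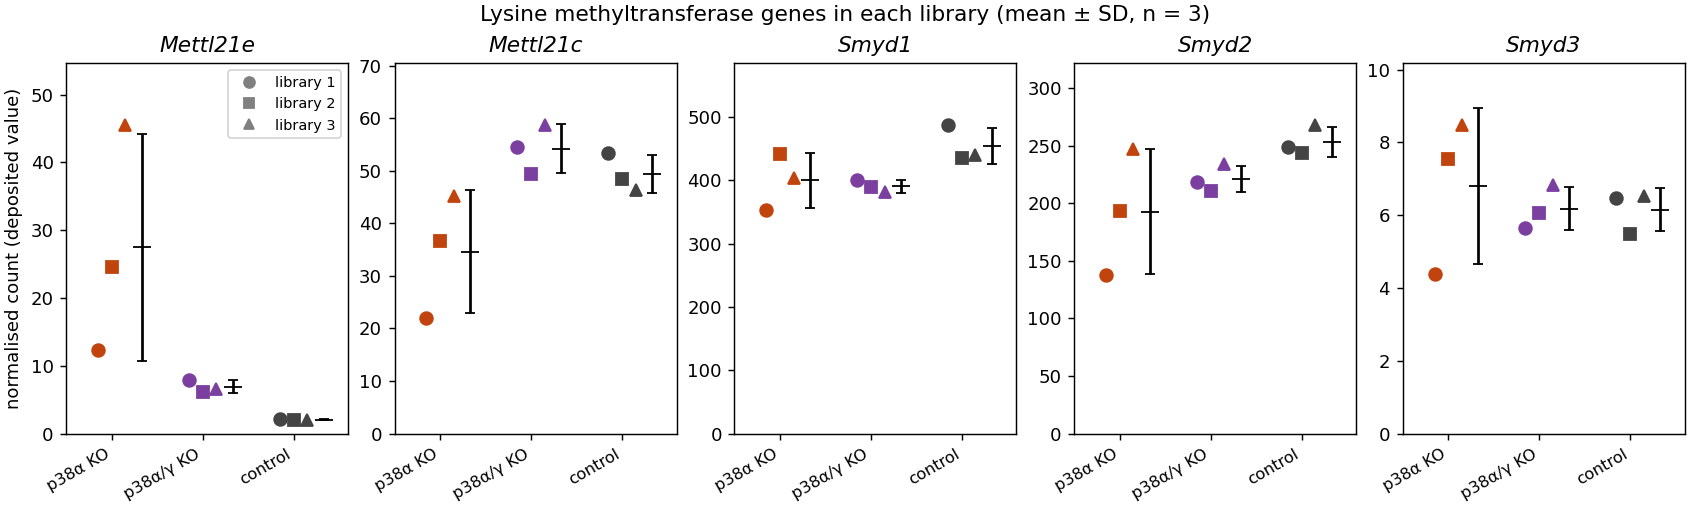
Normalised count of each member gene in each library (vertical axes from 0, 1 panel per gene), with the mean and SD of the 3 libraries of a group in black. Mettl21e spans 12.4 to 45.5 in p38α KO libraries, 6.20 to 7.97 in p38α/γ KO libraries and 2.06 to 2.09 in controls, and p38α KO library 1 is the lowest of its group in all 5 panels.

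Mettl21c, the closest relative of Mettl21e among the members, did not share its pattern. Its normalised counts were 22.1, 36.6 and 45.2 in p38α KO libraries 1, 2 and 3, against 53.3, 48.4 and 46.4 in controls. All 3 p38α KO values lay below all control values, library 1 furthest, and library 3 only just. The means were 34.6 ± 11.7 in p38α KO and 49.4 ± 3.58 in control libraries (SD, n = 3 each), a log2 difference of -0.56 (SE 0.21) that was -0.27 without library 1 and -0.77 without library 3. The p38α/γ KO libraries had 54.6, 49.3 and 58.8, which overlap the controls; the log2 difference of p38α/γ KO from control was 0.13 (95% interval -0.34 to 0.60, limma adjusted p = 0.661, exact permutation p = 0.2, two-sided). All p38α KO values were below all p38α/γ KO values, with a log2 difference of -0.69 (95% interval -1.16 to -0.22) that did not pass the threshold (limma adjusted p = 0.237). That difference was -0.40 without p38α KO library 1, where it did pass (adjusted p = 0.0413). The number of genes called between the knockouts ran from 23 to 1872 over the fits that left out 1 library, against 58 with all libraries.

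The ratio of the 2 paralogues separated all 3 groups, as Mettl21e by itself did. Since Mettl21e was picked by its p38α KO and control values, this separation is a description and not a result. The value of Mettl21e divided by that of Mettl21c was 0.560, 0.670 and 1.01 in p38α KO libraries 1, 2 and 3. It was 0.146, 0.126 and 0.113 in the p38α/γ KO libraries and 0.0391, 0.0428 and 0.0444 in the controls. No group overlapped another in this ratio, and within the p38α KO group it varied less than Mettl21e itself, since both genes were lowest in library 1 and highest in library 3. The summed values of the pair were 34.4, 61.1 and 90.7 in p38α KO libraries, 62.6, 55.5 and 65.4 in p38α/γ KO libraries and 55.4, 50.5 and 48.4 in controls, so p38α KO library 1 had the lowest sum of all 9 libraries and library 3 the highest. Per kilobase of annotated exon (3961 bases for Mettl21e, 4300 for Mettl21c), Mettl21e stood at 1.09 times Mettl21c in p38α KO library 3 and at 0.0425 to 0.0482 times in controls.

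**Figure D2:**
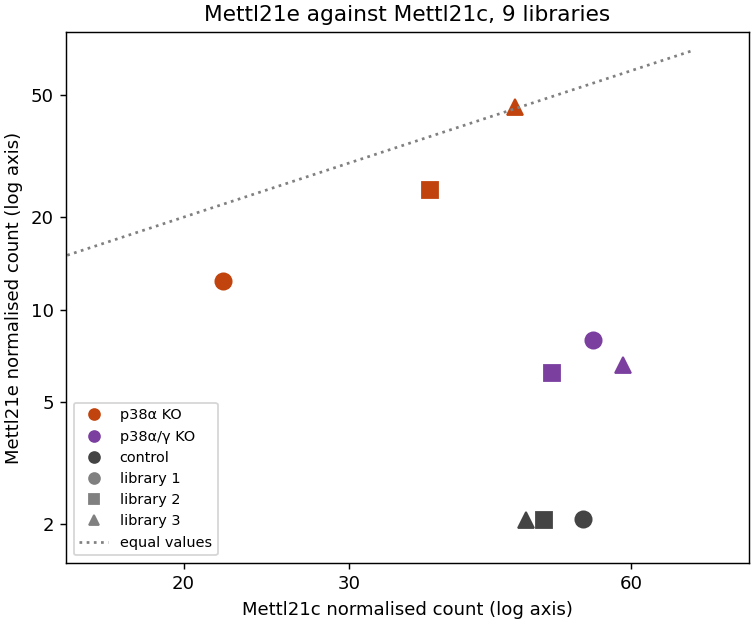
Mettl21e against Mettl21c, both as normalised counts on log axes, 1 point per library, with a dotted line where both are equal. p38α KO libraries lie near or on the line at ratios of 0.560 to 1.01, p38α/γ KO libraries at 0.113 to 0.146 and controls at 0.0391 to 0.0444.

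Smyd1, the SMYD enzyme of striated muscle, had the highest normalised count of the members in every library. It had 354, 441 and 404 in p38α KO libraries 1, 2 and 3, 401, 389 and 381 in p38α/γ KO libraries 1, 2 and 3, and 488, 435 and 440 in the controls. The p38α KO values overlapped the controls, with a log2 difference of -0.19 (SE 0.10). All 3 p38α/γ KO values were below all controls, at 390.2 ± 9.92 against 454.2 ± 29.0 (SD, n = 3 each), but the log2 difference of -0.22 (95% interval -0.44 to 0.0022) did not pass the threshold in the fit over 9 libraries (limma adjusted p = 0.125). It did pass when p38α KO library 1 was left out (adjusted p = 0.0360), when the 6 libraries of the comparison were fitted alone (0.0336) and when those 6 were paired by number as a replicate block (0.0337). With the block in all 9 libraries it did not (0.191). Both 6-library fits called more genes at large, 5637 of 13137 in the paired one, against 3368 in the fit over 9 libraries. A pass there is therefore not particular to Smyd1. The 2 knockouts differed by 0.03 on the log2 scale (95% interval -0.19 to 0.25).

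Smyd2, which methylates Hsp90, had 138, 193 and 247 in p38α KO libraries 1, 2 and 3, 219, 211 and 234 in p38α/γ KO libraries 1, 2 and 3, and 249, 243 and 268 in the controls. Library 1 of the p38α KO group was at 54.4% of the control mean, while library 3 was at 97.3% and lay within the control range. The log2 difference of p38α KO from control was -0.43 (SE 0.17), -0.63 without library 3 and -0.21 without library 1. All p38α/γ KO values were below all controls, at 221.1 ± 11.6 against 253.4 ± 12.9 (SD, n = 3 each), with a log2 difference of -0.20 (95% interval -0.58 to 0.19) that did not pass (limma adjusted p = 0.410). In the fit to those 6 libraries alone it did pass (adjusted p = 0.0472), also when paired by number as a replicate block (0.0355), though not with that block in all 9 libraries (0.359). Both 6-library fits called more genes at large, 5637 of 13137 in the paired one, against 3368 in the fit over 9 libraries. A pass there is therefore not particular to Smyd2. The p38α KO values spanned the p38α/γ KO values, with a log2 difference of -0.24 between the knockouts (95% interval -0.62 to 0.15, limma adjusted p = 0.616).

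Smyd3 was among the lowest members and showed no separation of groups. It had 4.37, 7.54 and 8.48 in p38α KO libraries 1, 2 and 3, 5.66, 6.06 and 6.82 in p38α/γ KO libraries 1, 2 and 3, and 6.46, 5.47 and 6.52 in the controls, from 119 to 238 reads per library. The p38α KO libraries held both the lowest and the highest of the 9 values. The log2 difference from control was 0.09 (SE 0.19) in p38α KO and 0.01 in p38α/γ KO (95% interval -0.42 to 0.44, limma adjusted p = 0.985), and between the knockouts it was 0.08 (95% interval -0.35 to 0.51).

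In p38α KO against control 17.8% of all tested genes were called (limma adjusted p below 0.05); of the members this holds for 1 of 5, Mettl21e, which follows from how the gene was picked and is not a result. In p38α/γ KO against control 1 of 5 was called, again Mettl21e, where 25.6% of all tested genes were called, so the count of members is about that of genes at large. Between the knockouts 0 of 5 were called by limma, where 0.442% of tested genes were; 2 of 5, Mettl21e and Mettl21c, had an unadjusted p below 0.05, as did 12% of all tested genes, and Mettl21e was picked by the p38α KO libraries used here. Groups did not overlap for 2 members in p38α KO against control (38.6% of tested genes), for 3 members in p38α/γ KO against control (55% of tested genes) and for 2 members between the knockouts (14.3% of tested genes). The median log2 difference over all tested genes was 0.01 in p38α KO, 0.02 in p38α/γ KO and -0.01 between the knockouts.

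Compared per kilobase of annotated exon, the order of the group means changed between groups only at its low end. In single libraries the top could change too. Smyd2 stood above Smyd1 in library 3 of p38α KO (90.8 against 88.9), of p38α/γ KO (86.0 against 83.8) and of the controls (98.7 against 96.9). In controls Smyd1 (99.9 ± 6.38) and Smyd2 (93.3 ± 4.76) led with overlapping ranges, Mettl21c followed (11.5 ± 0.833), and Smyd3 (0.670 ± 0.0643) and Mettl21e (0.523 ± 0.0034) came last, the lowest Smyd3 value still above the highest of Mettl21e. In p38α KO muscle Mettl21e (6.94 ± 4.24) stood above Smyd3 (0.740 ± 0.234) and its range overlapped that of Mettl21c (8.05 ± 2.72). In p38α/γ KO muscle Mettl21e (1.75 ± 0.234) also stood above Smyd3 (0.673 ± 0.0643) and below Mettl21c (12.6 ± 1.10) in every library. All are normalised counts per kilobase as mean ± SD of 3 libraries.

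All members but Smyd1 spread more within the p38α KO group than the typical gene. Coefficients of variation there were 61.1% for Mettl21e, 33.7% for Mettl21c, 28.2% for Smyd2, 31.6% for Smyd3 and 11.0% for Smyd1, against a median of 16.0% over all tested genes. Library 1 was the lowest p38α KO library for all 5 members, as it was for 41.6% of all tested genes, and library 3 was the highest for all but Smyd1. In the controls the coefficients of variation were 0.651% for Mettl21e and 5.11% to 9.60% for the other 4, against a median of 8.16%. Over the 9 libraries, the pair of members whose log2 values ran most alike was Smyd2 and Mettl21c (Pearson r = 0.856, a description over libraries that share groups and depth).

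Markers of other cell and fibre types differed between the p38α KO libraries. Genes of immature or regenerating fibres, such as Myh3, Myh8 and Myog, summed to 394.9, 125.0 and 75.7 in p38α KO libraries 1, 2 and 3, to 71.8 to 279.1 in p38α/γ KO libraries and to 40.0 to 47.6 in controls; 5 of 7 were called higher in p38α KO and 2 of 7 in p38α/γ KO (limma adjusted p below 0.05). Macrophage genes summed to 358.4, 269.4 and 155.7 in p38α KO libraries 1, 2 and 3, to 170.1 to 332.3 in p38α/γ KO libraries and to 81.5 to 114.0 in controls, with 9 of 14 called higher in p38α KO and 13 of 14 in p38α/γ KO. Genes of fibro-adipogenic progenitors summed to 1810, 1003 and 852.8 in p38α KO libraries 1, 2 and 3, to 1320 to 1792 in p38α/γ KO libraries and to 810.5 to 1042 in controls, with 1 of 6 called higher in p38α KO and 4 of 6 in p38α/γ KO. Over all tested genes, 7.32% were called higher in p38α KO and 11.2% in p38α/γ KO. Within the p38α KO group these 3 sums were largest in library 1, where all 5 members were lowest, and smallest in library 3. Endothelial genes kept that order (268.4, 258.6 and 245.0), while genes of satellite cells, smooth muscle, adipocytes and Schwann cells did not. The sum over the 10 fibre genes ran in the opposite order, at 94483, 121244 and 128294 in p38α KO libraries 1, 2 and 3. Slow fibre genes, of interest because of Mettl21c, summed to 1982, 1367 and 471.4 in p38α KO libraries 1, 2 and 3, to 1352 to 1911 in p38α/γ KO libraries and to 903.0 to 1806 in controls, and 0 of 7 were called in any comparison, at adjusted or unadjusted p below 0.05 (limma). The part of these cell types in the values of the members was not tested, and in bulk tissue fewer cells of a type and less RNA per cell cannot be told apart.

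The wider family of Mettl21e went both ways. Of 15 genes for Mettl21 and other seven-β-strand lysine methyltransferases, 13 are left without Mettl21e and Mettl21c. Of these, 2 of 13 were called higher (limma adjusted p below 0.05) and 1 lower in p38α KO, where 7.32% and 10.4% of all tested genes were, and 2 were higher and 2 lower in p38α/γ KO, where 11.2% and 14.4% were. The median log2 difference of these 13 was 0.08 in p38α KO and 0.02 in p38α/γ KO. Mettl21a, which methylates Hsp70 chaperones, averaged 14.3 ± 1.48 in p38α KO and 8.95 ± 1.11 in control libraries (SD, n = 3 each) and rose by 0.62 on the log2 scale (limma adjusted p = 0.0139, and 0.0536 without control library 2). Eef2kmt, which methylates elongation factor 2, rose by 0.56 in p38α KO (adjusted p = 0.0159, up to 0.0668 without a control library) and by 0.43 in p38α/γ KO (adjusted p = 0.0332, up to 0.119 with 1 library left out). Eef1akmt1, which methylates elongation factor 1A, fell by 0.55 in p38α KO (adjusted p = 0.0105) and stayed past the threshold without any 1 library. In p38α/γ KO, Fam173a, which methylates the mitochondrial ADP/ATP carrier, rose by 0.53 (adjusted p = 0.0216), Mettl23 fell by 0.37 (0.0311) and Mettl22 fell by 0.23 (0.0421), and each of these 3 calls was lost in at least 4 of the 9 fits that left out a library.

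**Figure D3:**
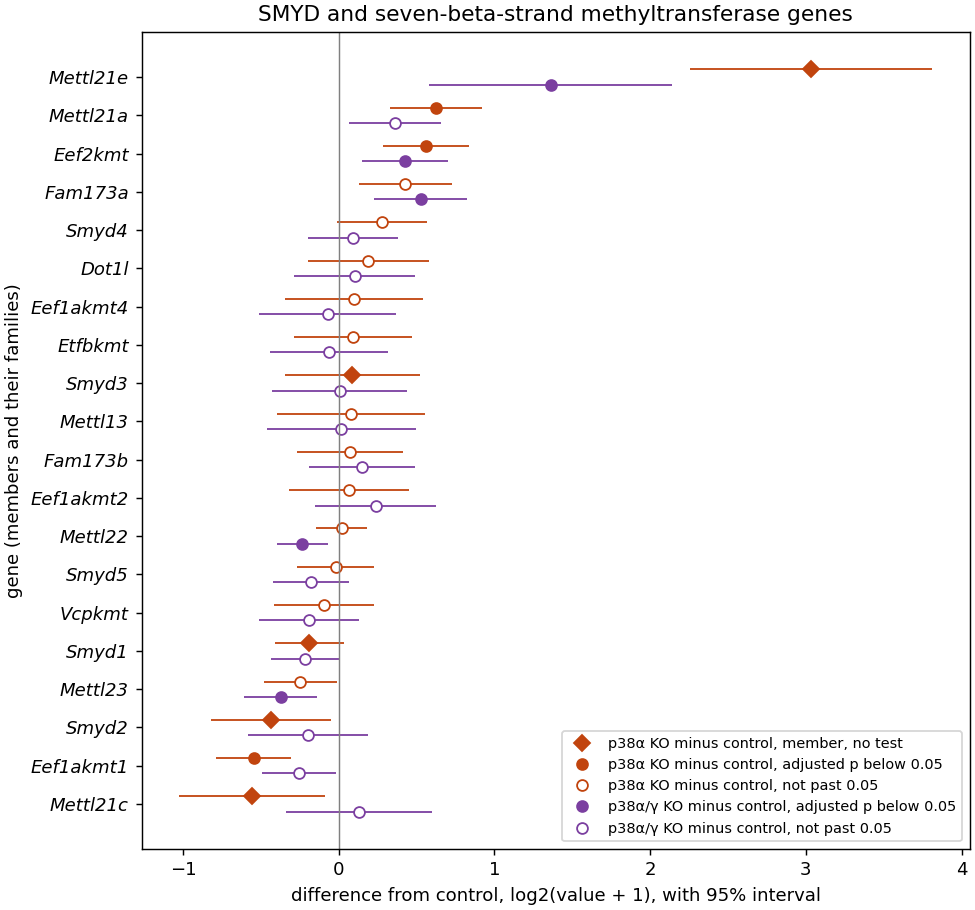
Log2 difference from control with its 95% interval for the 5 SMYD and 15 seven-β-strand methyltransferase genes, p38α KO above p38α/γ KO for each gene. Filled circles passed the adjusted p of 0.05, open circles did not, and diamonds are members in p38α KO, which carry no test; Mettl21e at 3.03 and 1.36 lies outside the range of the other genes.

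Of the 5 SMYD genes, 0 were called in p38α/γ KO or between the knockouts by limma, also at an unadjusted p below 0.05. Of all tested genes, 25.6% were called in p38α/γ KO and 0.442% between the knockouts. An unadjusted p below 0.05 (limma) was found for 41.0% and 12% of them. A count of 0 among 5 genes is therefore not read as stability of the family. Smyd4 averaged 7.75 ± 0.640 in p38α KO, 6.72 ± 0.891 in p38α/γ KO and 6.24 ± 0.831 in control libraries, and Smyd5 averaged 8.13 ± 0.731 in p38α KO, 7.20 ± 0.828 in p38α/γ KO and 8.24 ± 0.221 in control libraries (SD, n = 3 each). Of 30 other SET domain methyltransferases, 11 were called lower and 0 higher in p38α KO, where 10.4% of all tested genes were called lower. In p38α/γ KO 8 of 30 were called lower and 0 higher, where 14.4% of all tested genes were called lower. The log2 differences of the 30 genes ran from -0.92 to 0.40 in p38α KO (median -0.30) and from -0.91 to 0.42 in p38α/γ KO (median -0.21), so those not called lay on both sides of 0. Kmt5a, which monomethylates histone H4 lysine 20, averaged 73.2 ± 2.62 in p38α KO, 98.6 ± 8.80 in p38α/γ KO and 139.8 ± 6.81 in control libraries, with log2 differences of -0.92 (limma adjusted p = 0.00056) and -0.50 (adjusted p = 0.00639) from control. Prdm2, which acts on histone H3 lysine 9, fell by 0.91 in p38α/γ KO (limma adjusted p = 0.00296), to 29.3 ± 4.58 against 55.4 ± 0.796 in controls. Those calls of Kmt5a and Prdm2 held without any 1 library.

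Demethylases, which remove the methyl groups, and the supply of the methyl donor were counted likewise. Of 21 lysine demethylases, 3 were called lower in p38α KO and 4 in p38α/γ KO, and 0 higher; with 10.4% and 14.4% of all tested genes called lower, these shares are near those of genes at large. Kdm6b, the histone H3 lysine 27 demethylase, fell by 0.50 in p38α KO (limma adjusted p = 0.00535) and by 0.37 in p38α/γ KO (adjusted p = 0.0139, up to 0.0558 with 1 library left out). Of 9 protein arginine methyltransferases, 0 were called in p38α KO or p38α/γ KO, also at an unadjusted p below 0.05 (limma), with median log2 differences of 0.03 and -0.08. Over all tested genes, 17.8% and 25.6% were called, and 34.0% and 41.0% had an unadjusted p below 0.05 (limma). Of 12 genes that supply or recover S-adenosylmethionine, 3 were called lower in p38α KO (all tested genes, 10.4%) and 4 in p38α/γ KO (all tested genes, 14.4%), with median log2 differences of -0.02 and -0.47. Ahcyl2, a relative of the enzyme that clears S-adenosylhomocysteine, fell by 0.72 in p38α KO (limma adjusted p = 0.00341) and by 0.52 in p38α/γ KO (0.0105, and up to 0.0507 with 1 library left out). Mtap, which returns methylthioadenosine to methionine, fell by 0.94 in p38α/γ KO (limma adjusted p = 0.0065), to 8.36 ± 0.649 against 17.0 ± 1.56 in controls (SD, n = 3 each).

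Of 17 known substrates and partners of the enzymes, 1 was called higher and 3 lower in p38α/γ KO (limma adjusted p below 0.05), where 11.2% of all tested genes were higher and 14.4% lower, so the list as a whole was near genes at large. In p38α KO 0 of 17 were called by limma, and 3 had an unadjusted p below 0.05, as did 34.0% of all tested genes; the difference between these counts was not tested. Hspa8, an Hsp70 chaperone and substrate of Mettl21 enzymes, averaged 832.1 ± 87.1 in p38α/γ KO and 1293 ± 39.4 in control libraries (SD, n = 3 each), a fall by 0.64 on the log2 scale (limma adjusted p = 0.00601). In p38α KO it averaged 1266 ± 114.4, and the difference between the knockouts was 0.61 (limma adjusted p = 0.0517). Unc45b, the myosin chaperone that works with Hsp90 and Smyd1, averaged 233.1 ± 7.53 in p38α/γ KO and 331.4 ± 15.8 in control libraries, a fall by 0.50 (limma adjusted p = 0.0198). Aars, the alanyl-tRNA synthetase that Mettl21c modifies, fell by 0.43 in p38α/γ KO (limma adjusted p = 0.0226), and Eef1a1, named after its value was seen, was 0.58 higher (adjusted p = 0.0421). With 1 library left out the adjusted p rose to at most 0.0726 for Unc45b, 0.0830 for Aars and 0.155 for Eef1a1, and to at most 0.0302 for Hspa8.

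**Figure D4:**
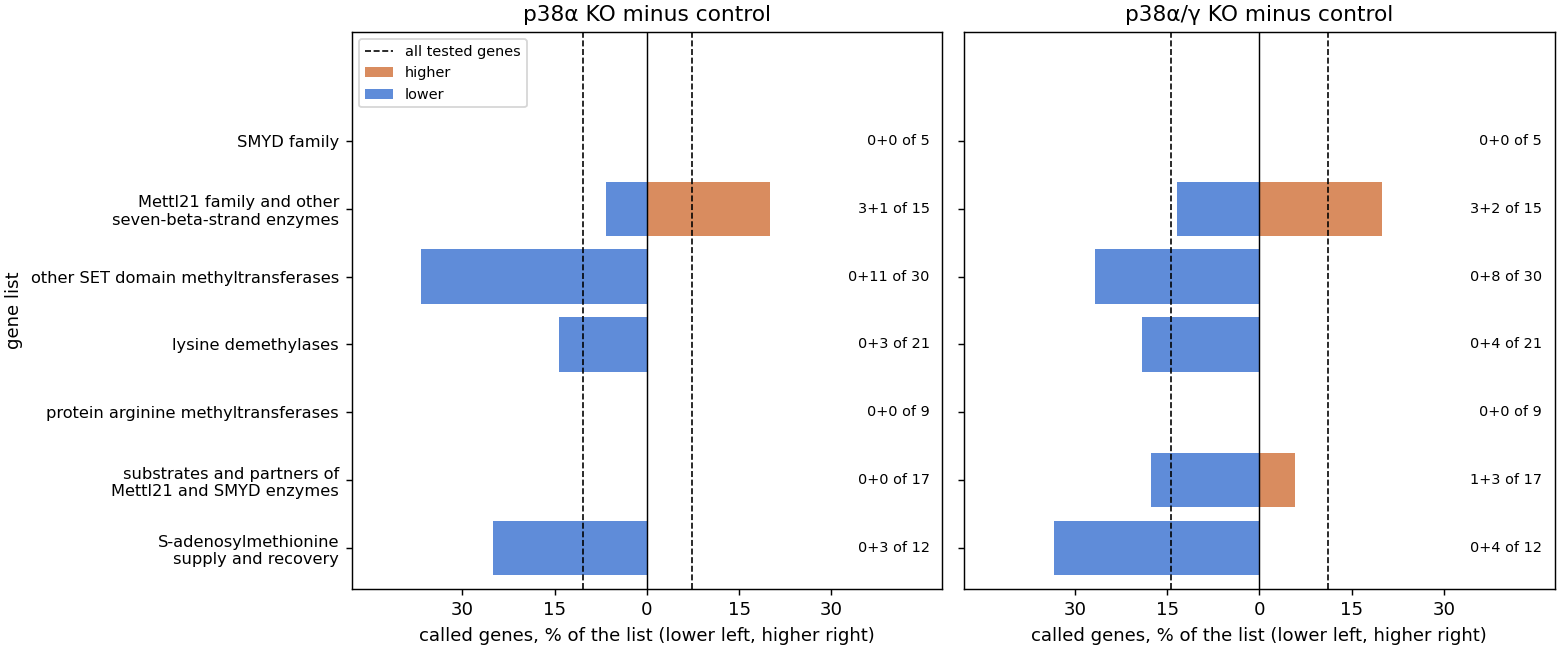
Share of each gene list called higher (right) or lower (left) than control at an adjusted p below 0.05, with dashed lines for all tested genes and the counts written as higher plus lower of the number tested. Other SET domain methyltransferases have 11 and 8 of 30 lower and 0 higher, and the counts of the Mettl21 and SMYD families include the 5 members, of which nothing is read in p38α KO.

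The genes whose log2 values ran most like those of Mettl21e over the 9 libraries were Rassf4 (Pearson r = 0.979), Exosc2 (0.976), Osbpl1a (0.975), Ifit3 (0.974) and Dcaf4 (0.964). Rassf4 had 8.80, 16.4 and 20.6 in p38α KO libraries 1, 2 and 3, 6.98 to 7.39 in p38α/γ KO libraries and 4.79 to 5.08 in controls, so it kept the order of groups and the low library 1, over a smaller range. For Mettl21c the most alike were Spns2 (0.986), Tmem267 (0.959) and Tdrp (0.940), and for Smyd1 they were Acbd5 (0.977), Cat (0.972), which encodes catalase, and Mfap3 (0.971). For Smyd2 the closest was Carm1 (0.995), a protein arginine methyltransferase, with 45.5, 56.1 and 69.9 in p38α KO libraries 1, 2 and 3, 62.1 to 65.6 in p38α/γ KO libraries and 67.4 to 72.2 in controls. Next for Smyd2 came Cc2d1a (0.986) and Ythdf1 (0.979). For Smyd3 they were the linker histone genes Hist1h1c (0.982) and H1f0 (0.974) and Mettl13 (0.974), another lysine methyltransferase. These genes had the highest correlations among tested genes with a symbol, with predicted genes left out. The correlations run over libraries that share groups and depth, and describe the pattern only.

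**Figure D5:**
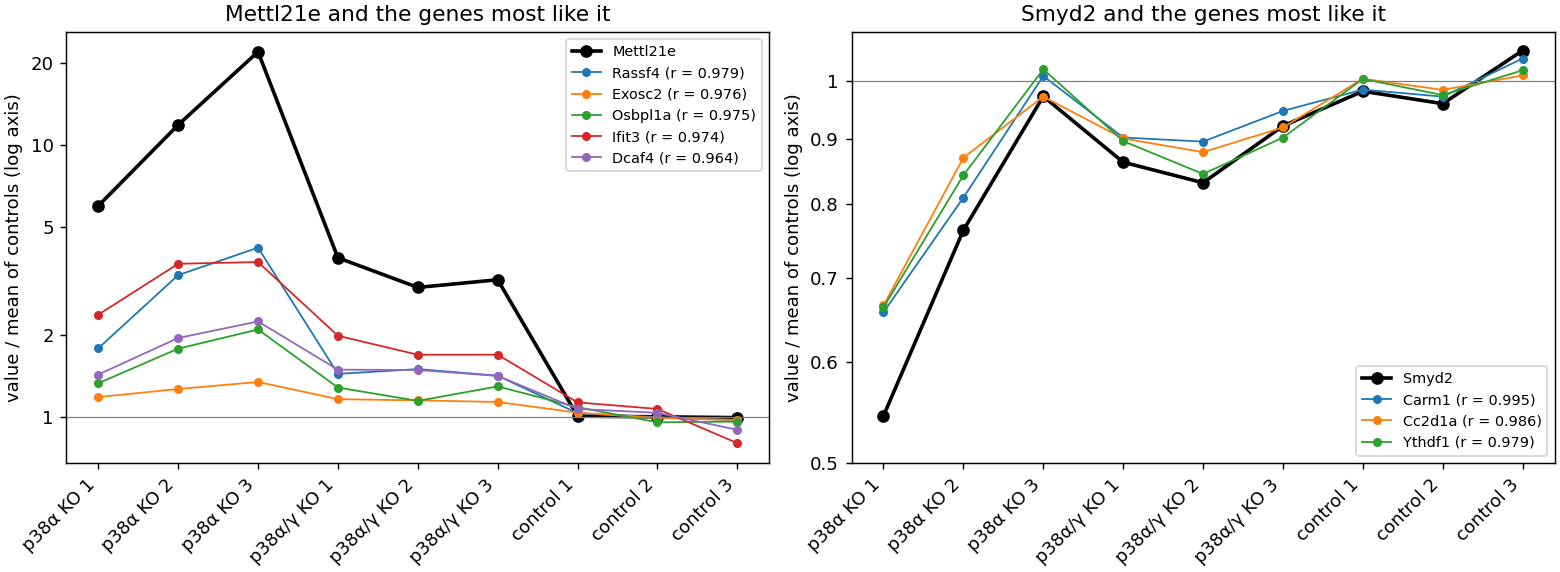
Value of Mettl21e (left) or Smyd2 (right) and of the genes most correlated with it, divided by the mean of the controls of the same gene, on log axes and for each of the 9 libraries; lines only guide the eye. Mettl21e reaches 5.96 to 22.0 in p38α KO libraries, and p38α KO library 1 is the lowest of all 9 for Smyd2 and its 3 companions.

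The tested genes nearest to the members on the chromosome, at 8.09 to 820 kb from start to start, were examined in the same fit. Over all tested genes, 17.8% were called in p38α KO and 25.6% in p38α/γ KO, and an effect of position was not tested. Sides were set by annotated start, so a neighbour can overlap its member. Gm15833, a processed pseudogene, overlaps Mettl21e, and Krcc1 overlaps Smyd1, both on the opposite strand and without overlap of exons. Of the 2 nearest tested genes on each side of Mettl21e, Ercc5, Bivm, Gm15833 and Gulp1, none was called in p38α KO, with log2 differences of -0.24 to -0.01 (limma), and Bivm fell by 0.35 in p38α/γ KO (adjusted p = 0.0493). Around Mettl21c, Tpp2 fell by 0.71 in p38α/γ KO (limma adjusted p = 0.0406), while Uxs1, Tex30 and Kdelc1 were not called in any comparison. Around Smyd1, Rmnd5a fell by 0.81 in p38α KO (limma adjusted p = 0.0186) and by 0.64 in p38α/γ KO (adjusted p = 0.0335). On the side of Smyd2, Pdcd5-ps, 603 kb away, rose by 0.61 in p38α KO (limma adjusted p = 0.0399). On the sides of Smyd3, Efcab2, 546 kb away, fell by 0.40 in p38α KO (limma adjusted p = 0.0298). Tfb2m, 576 kb from Smyd3, fell by 0.52 in p38α/γ KO (limma adjusted p = 0.0216).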

How the data were processed

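Polyadenylated RNA of gastrocnemius, with RIN above 8 and 100 ng as input, was sequenced as 51-base single reads from a stranded kit, per the labels' protocols. Per the submitters' processing notes the authors used GRCm38 with RSEM 1.3.1, limma, cutadapt and CASAVA 1.8; the annotation and the order of steps are not given in the sources used here. The deposited signal values, which the authors name normalised counts, equal a read number with 0.5 added, over the scaled depth of the library (within 0.001 reads); reads were inferred from this, and no count model was fitted.

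The members and lists were chosen with earlier results of these data known. Genes that reached 1 in 3 or more libraries entered limma 3.58.1 (R 4.3.3) on log2(value + 1), with a trended empirical Bayes step over all 9 libraries and Benjamini-Hochberg adjustment over 13137 genes. The step was tested on data simulated with the same spread in all groups, so that test does not cover groups of unequal spread. Here the median coefficient of variation was 16.0% in p38α KO, 9.82% in p38α/γ KO and 8.16% in control libraries. Single genes had an exact permutation test. Whether each library is a different animal is not given in the labels, and p-values reflect the spread of these libraries alone, which may be technical. Named beside the members were called genes of fixed lists (up to 3 per list, and all of both families), 2 neighbours on each side and the 5 (Mettl21e) or 3 most correlated genes. Genes without a symbol and predicted genes were left out of the search for correlated genes. Same-numbered p38α/γ KO and control libraries deviated together over all genes (r = 0.111, 0.124 and 0.148), so these were also fitted as pairs; those of the other comparisons did not all do so. Annotation was GENCODE M21, which held 13166 of the 13179 gene IDs.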

Additional observations from a re-analysis of the deposited data

Results flagged for a closer look

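Mtap differed between the knockouts in a direct test, with a log2 difference of 1.01 for p38α KO minus p38α/γ KO (limma adjusted p = 0.0348). It averaged 18.2 ± 4.46 in p38α KO and 8.36 ± 0.649 in p38α/γ KO libraries (SD, n = 3 each), and all p38α KO values lay above all p38α/γ KO values. With 1 library left out the log2 difference lay between 0.86 and 1.21, and the adjusted p passed the threshold in 1 of 9 such fits and reached 0.178 in another.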

How the results depend on the processing

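Of 220 refits of the 5 members in p38α/γ KO against control and between the knockouts, 200 kept direction and side of the threshold. Most of these concern members that were not called. The only member call among them, Mettl21e in p38α/γ KO against control, was kept in 15 of 22 refits and lost in 7. Leaving out 1 library at a time, members called numbered 0 to 2 in p38α/γ KO against control and 0 to 2 between the knockouts. They numbered 1 to 3 in p38α KO against control, from which nothing is read since Mettl21e was picked there. Genes called numbered 837 to 3257 in p38α KO, 859 to 5388 in p38α/γ KO and 23 to 1872 between the knockouts, against 2332, 3368 and 58 with all libraries. With a pseudocount of 5, 0 members were called in p38α/γ KO. With only the 6 libraries of a comparison, calls were 1364 genes in p38α KO, 5536 genes and 3 members in p38α/γ KO, and 22 genes between the knockouts, for which a value of at least 1 in all libraries gave 23. Only Smyd3 and Smyd1 changed sign. With 1 library left out, Smyd3 ranged from -0.074 to 0.34 in p38α KO, -0.065 to 0.058 in p38α/γ KO and -0.080 to 0.33 between the knockouts, where Smyd1 ranged from -0.045 to 0.11; with quantile normalisation Smyd3 was -0.068 in p38α/γ KO. The causes were not tested. With number as a replicate block, pairing left 1 member called in p38α/γ KO and 32 genes between the knockouts in 9 libraries, and the Mettl21e call in p38α/γ KO had adjusted p = 0.0362 (limma). In 6 libraries, an alternative chosen after seeing the data, as was that with no pseudocount, the block gave 212 genes in p38α KO, 5637 genes and 3 members in p38α/γ KO, and 16 genes between the knockouts. Reads limit Mettl21e in controls (47 to 52 per library) and Smyd3 (119 to 238).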
